A study of Sus scrofa with 23 samples.

Results

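The comparison described here asked what corn dried distillers grains with solubles (cDDGS, the protein- and oil-rich residue of ethanol production from maize) did to gene expression in pig backfat when the added fat was rapeseed oil. It set group II (+cDDGS+rapeseed oil, 6 pigs, numbers 17, 19, 20, 21, 22 and 24) against group I (-cDDGS+rapeseed oil, 7 pigs, numbers 1, 2, 3, 5, 6, 7 and 8). These 13 pigs, of 23 in the series, were taken by the diet in their labels. The other 10 pigs also ate cDDGS, with beef tallow in group III (5 pigs) or coconut oil in group IV (5 pigs), and enter only where stated. Group I had 4 females and 3 males, and group II had 3 of each. All the animals were crossbred fatteners, from Polish Landrace and White Large Polish sows and from a Duroc and Pietrain cross on the boar side. The feed mixtures were balanced to a like energy content, although by the methods of the study those with cDDGS held more crude fat and fiber and less starch. The mixture of group II also had a higher share of linoleic acid among its fatty acids than that of group I. Effects of cDDGS and of these components, the amount of fat included, therefore cannot be told apart. The males were castrated. No age is given in the labels. Total RNA from the subcutaneous fat of the back was sequenced in 1 library per pig, so p-values measure the spread between animals. The study states that the RNA it obtained was degraded to some degree.

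Backfat is the main site where the pig makes fatty acids from glucose. In an adipocyte, citrate leaves the mitochondrion and is split to acetyl-CoA, from which the cytosolic enzymes build saturated fatty acids that are desaturated, esterified and stored in the lipid droplet. Dietary fat, and linoleic acid above all, is known to lower the expression of these enzymes. The tissue also holds macrophages, mast cells, vessels and preadipocytes, and in RNA from whole tissue fewer cells of a type and less RNA per cell cannot be told apart.

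Counts assigned to genes ranged from 3006222 to 5261962 per library in group I and from 2437172 to 5123759 in group II. Levels are given below as CPM (counts per 1000000, scaled by the TMM method over the 23 libraries). Of the uniquely placed reads, 53.2% to 60.1% fell outside annotated genes in group I and 54.5% to 69.2% in group II (exact permutation p = 0.0437, adjusted p = 0.147 over 6 library measures). Pigs 21 and 19 of group II had the highest shares of the 13, 69.2% and 68.5%. The label backfat was checked against 13 adipocyte markers. Perilipin 1 (PLIN1), which coats the lipid droplet, lay at 1056 to 1440 CPM in group I and 740 to 1469 in group II, and PPARG, the regulator of adipocyte identity, at 126 to 243 and 113 to 328 CPM. RETN was listed at 0 in all 13 libraries, and ADIPOQ, LEP, FABP4 and AQP7 were not matched by symbol. The summed level of the 9 matched markers overlapped between the groups, with 2720 to 3631 CPM in group I and 2106 to 3328 in group II.

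Of the 10323 genes tested with edgeR, 3 had an adjusted p under 0.05 with a difference of over 1.3-fold, which is 0.0291% of the genes. AACS and FITM2, both genes of lipid metabolism, fell with cDDGS, and FOLR1, the gene of a folate receptor, rose. In each of the 3 genes every pig of group II lay beyond every pig of group I. The groups failed to overlap in this way in 27 genes higher in group II (0.262% of those tested) and in 25 lower in group II (0.242%).

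AACS encodes acetoacetyl-CoA synthetase, the cytosolic enzyme that turns the ketone body acetoacetate into acetoacetyl-CoA for the synthesis of sterols and fatty acids. Its level was 163 to 256 CPM (median 219) in group I and 103 to 137 CPM (median 116) in group II. The highest pig of group II thus lay under the lowest of group I, and the spread was smaller with cDDGS than without it. The level fell by 0.82 on the log2 scale (SE 0.12, adjusted p = 0.0393 with edgeR), a 1.77-fold difference.

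FITM2 encodes an endoplasmic reticulum protein needed for the formation of lipid droplets. It measured 51.7 to 71.5 CPM (median 63.6) in group I and 28.7 to 44.6 CPM (median 34.9) in group II. Again no pig of group II reached the lowest pig of group I. The level fell by 0.79 on the log2 scale (SE 0.13, adjusted p = 0.0393 with edgeR).

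FOLR1 encodes folate receptor alpha, which carries folate into the cell. Its CPM ranged from 24.0 to 49.3 (median 42.6) in group I and from 61.9 to 90.9 (median 75.5) in group II, and the log2 fold change was 0.92 (SE 0.15, adjusted p = 0.0393 with edgeR). All the pigs given cDDGS were above the highest control pig. No other of the 7 tested genes of folate and one-carbon metabolism had an unadjusted p under 0.05, and the related receptor FOLR2 had a log2 fold change of -0.10. The median of these 7 genes was -0.09, and 1 of them was under 0.05 at lower values without pig 1, 20 or 24.

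**Figure D1:**
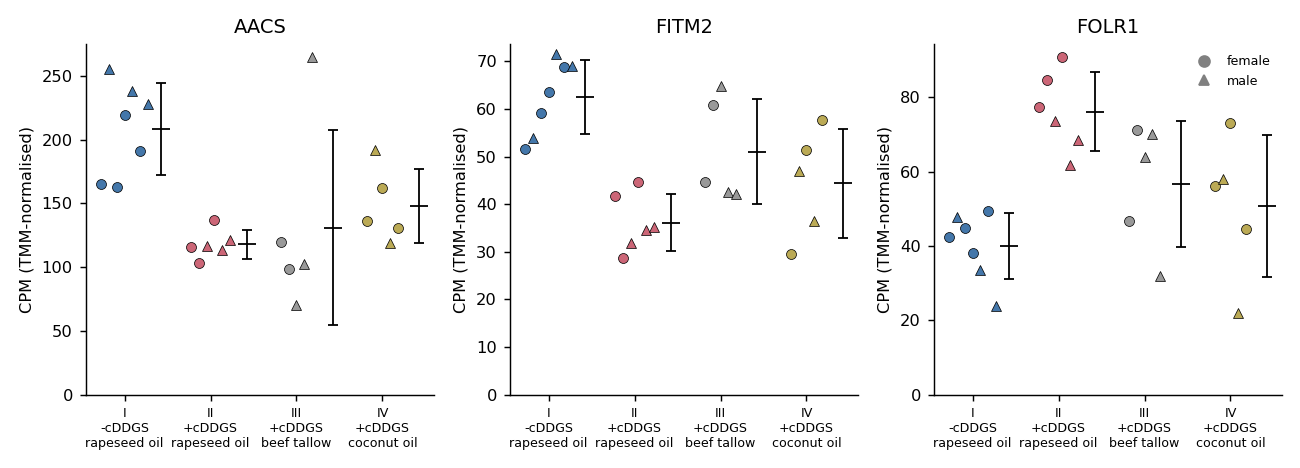
CPM of AACS, FITM2 and FOLR1 (vertical axes, from 0) in each pig of groups I to IV, circles for females and triangles for males, with the mean and SD of each group at its right. In the 3 panels the pigs of group II do not overlap those of group I, while groups III and IV spread over both.

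For each of the 3 genes an exact permutation test of log2(CPM + 0.5) over the 1716 ways to divide the 13 pigs gave the smallest p it can, 0.000583. The groups were already known not to overlap in these genes, so this p adds no evidence. CFAP53, TCHP, PCDH12, MMD and SCD, which were not called with edgeR, reached the same p. The adjusted p did not withstand the loss of most animals. With 1 pig left out at a time, 0 genes were called without any one of pigs 2, 5, 6, 7, 8, 17, 19, 20, 22 or 24, 1 (AACS) without pig 3, 3 without pig 21 (AACS, FITM2 and HIST2H2AB) and 17 without pig 1, while the log2 fold changes stayed between -0.88 and -0.76 for AACS, -0.86 and -0.74 for FITM2 and 0.83 and 0.98 for FOLR1. DESeq2, the tool the study used, called 95 of the 8229 genes to which it gave an adjusted p (1.15%), 45 higher and 50 lower in group II, and limma-voom called 4. With the share of reads outside genes, or the RNA integrity number, as a covariate no gene was called with edgeR, the smallest adjusted p being 0.156 and 0.0892, and without both pigs 19 and 21 none was either (0.111).

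**Figure D2:**
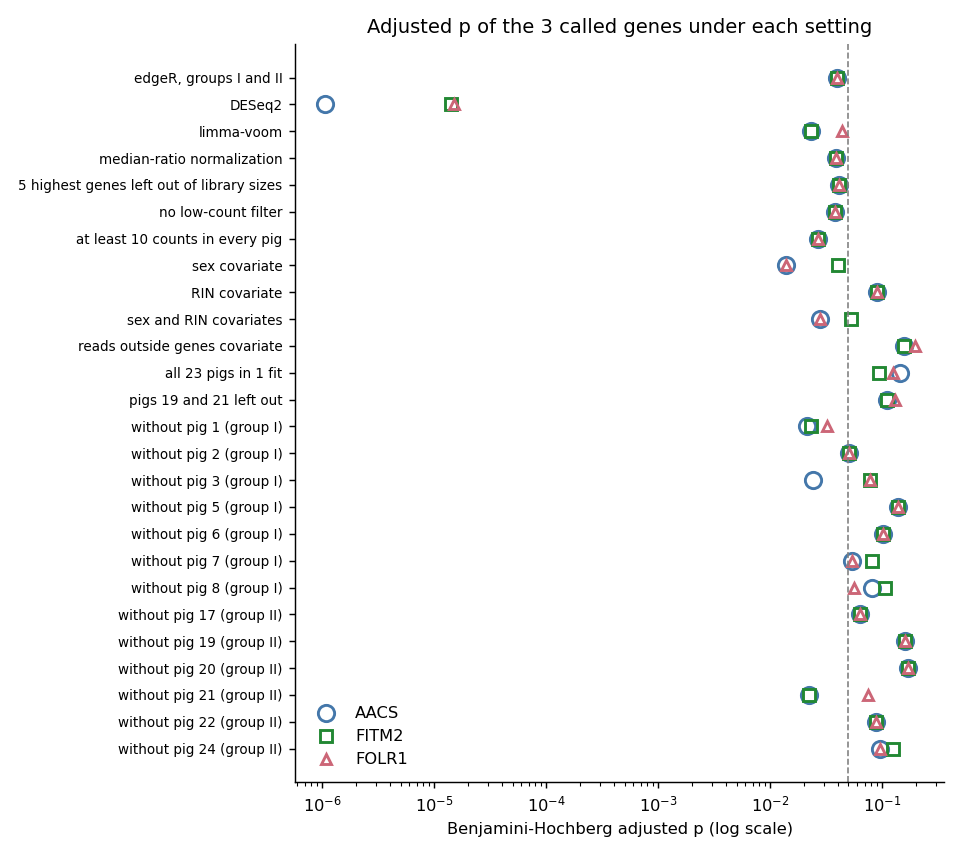
Adjusted p (log axis) of AACS, FITM2 and FOLR1 under each setting of the test, listed on the vertical axis, with the threshold of 0.05 dashed. DESeq2 lies far below the threshold, and most fits without 1 pig lie between 0.05 and 0.2.

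The next genes by p followed at an adjusted p of 0.105 with edgeR, and 34 genes in all were under 0.2, 18 of them higher and 16 lower in group II. The 12 genes of smallest p in each direction among those with a symbol, which include the 3 above, are described next by their values. None of the other 21 passed the adjusted threshold with edgeR. DESeq2 gave no adjusted p to CFAP53 and HIST2H2AB, and gave the rest of the 21 an adjusted p under 0.05, from 0.00041 (ACLY) to 0.0109 (COX7A2 and UQCRFS1).

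Among the genes at higher values in group II, CFAP53, which encodes a protein of motile cilia, measured 1.51 to 2.64 CPM in group I and 3.23 to 8.25 CPM in group II (log2 fold change 1.41, SE 0.26). TCHP, the gene of the centrosomal protein trichoplein, measured 4.9 to 8.48 CPM and 10.1 to 15.2 CPM. In both genes the groups did not overlap. The same held for C1QA and VSIG4 (genes of macrophages, below), for PCDH12, a protocadherin of endothelial cells (3.23 to 6.75 CPM against 6.93 to 12.2 CPM), and for ZEB1 and NCOA7. The histone genes HIST2H2AB (log2 fold change 1.56) and HIST1H2AC (1.49), the lymphocyte GTPase gene GIMAP4 (1.20) and the myosin gene MYO1E (0.67) overlapped between the groups by 1 or more pigs.

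Among the genes at lower values in group II, ACLY had the largest difference, with a log2 fold change of -1.57 (SE 0.31). CYB5B, a cytochrome b5 of the outer mitochondrial membrane, measured 31.2 to 56.2 CPM in group I and 18.9 to 28.4 CPM in group II. COX7A2, a subunit of complex IV, measured 18.3 to 35.1 and 11.7 to 18.2 CPM. PPTC7, a mitochondrial phosphatase, measured 50.2 to 83.6 CPM against 28.9 to 48.9, without overlap, and UQCRFS1, the Rieske protein of complex III, 63.6 to 122 against 40.9 to 66.1, with overlap. MMD (307 to 412 CPM against 131 to 254) and the small GTPase gene MRAS (102 to 162 against 55.7 to 100) did not overlap either. ABHD3, USP53 and ATL2 had log2 fold changes of -0.82, -0.94 and -0.64 with 5 of the 6 pigs of group II below the lowest control pig.

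**Figure D3:**
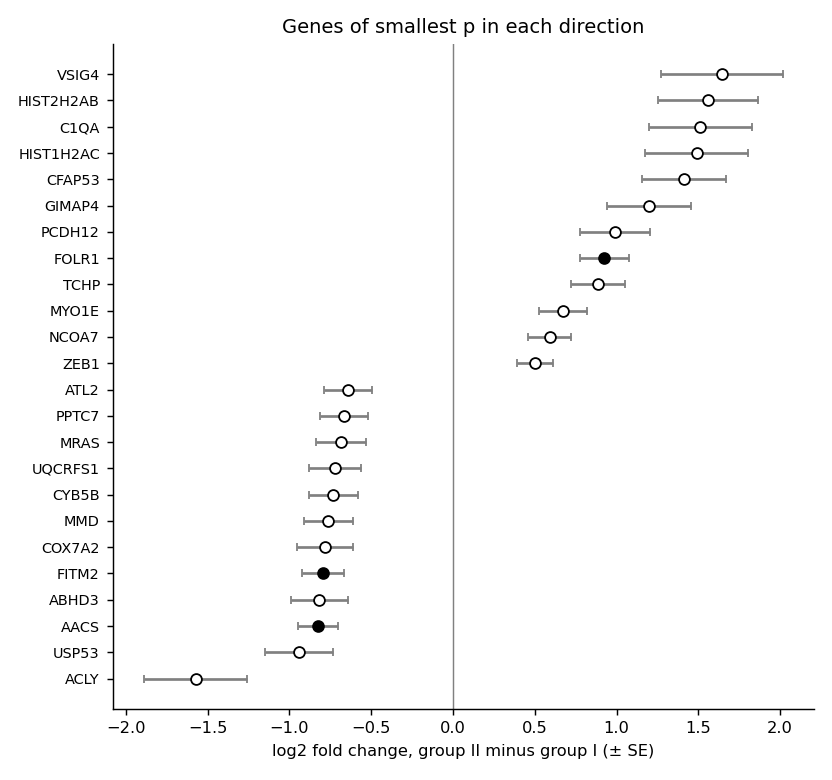
Log2 fold change of group II over group I (horizontal axis, with SE) for the 12 genes of smallest p in each direction, filled where the adjusted p was under 0.05 with edgeR. AACS, FITM2 and FOLR1 are the 3 filled genes, and the other 21 are open.

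The gene lists of this report were put together with results of these data known, and several hold genes that the study reported as changed. Their counts are therefore no independent evidence of a direction. Genes of fatty acid synthesis lay lower with cDDGS. Of the 11 identifiers tested on this list, 9 had an unadjusted p under 0.05, all at lower values in group II, where 6.41% of all genes tested had such a p in that direction and 6.55% in the other. The median log2 fold change was -0.89, against 0.0030 over all genes tested (SD 0.34). None passed the adjusted threshold with edgeR, the smallest adjusted p being 0.143, while DESeq2 called 7. Summed over the list, the level was 20390 to 42980 CPM in group I and 5632 to 18827 CPM in group II, so that the groups did not overlap. SCD alone made up 17147 of the mean sum of 30564 CPM in group I and 8050 of 14685 CPM in group II. It was also the only 1 of the 11 identifiers whose groups did not overlap, so the separation of the sums largely follows SCD.

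ACLY, which encodes the ATP citrate lyase that supplies cytosolic acetyl-CoA, measured 325 to 1476 CPM (median 555) in group I and 174 to 348 CPM (median 230) in group II. Pigs 5 and 2 stood highest in group I, and only 1 pig of group II reached its range. SCD, the stearoyl-CoA desaturase that makes oleic from stearic acid, measured 13036 to 22085 CPM in group I and 2489 to 11906 CPM in group II (log2 fold change -1.09, SE 0.28) and did not overlap. ME1, the malic enzyme, which yields NADPH in the cytosol, measured 548 to 2065 CPM and 181 to 745 CPM (log2 fold change -1.24, SE 0.32), with 2 pigs of group II below the lowest control. Named after their values were seen, FASN, the fatty acid synthase, had log2 fold changes of -1.01 and -0.99 in its 2 identifiers, between which the counting may split reads, ACACA, the acetyl-CoA carboxylase, of -0.89, and SLC25A1, the mitochondrial citrate carrier, of -0.88. The glucose-sensing factor MLXIPL (-0.56) and ACSS2 (-0.60) complete the 9.

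**Figure D4:**
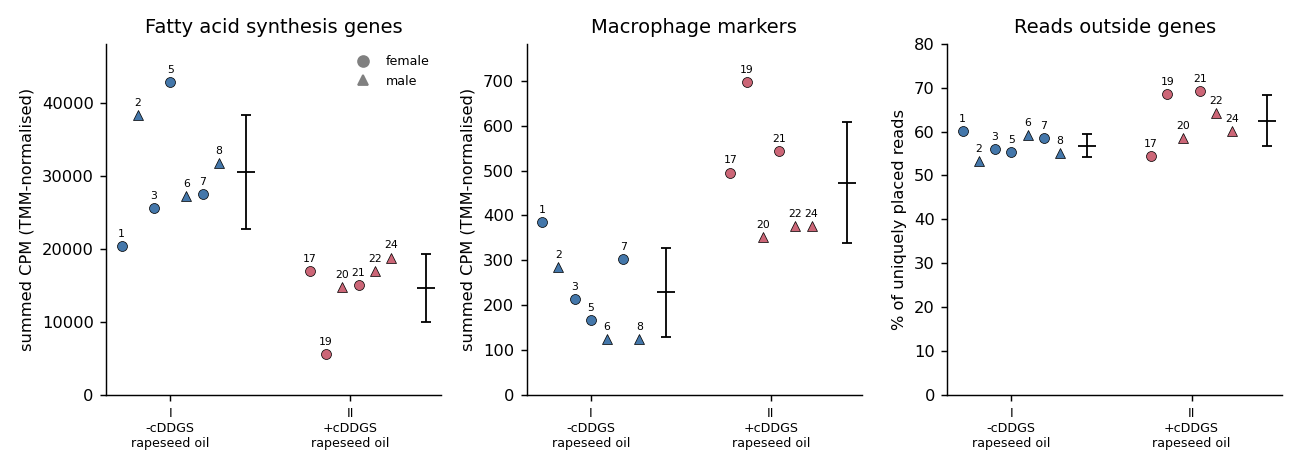
Summed CPM of the fatty acid synthesis genes and of the macrophage markers, and share of uniquely placed reads outside genes (vertical axes, from 0), in each pig of groups I and II with the mean and SD. Pig 19 has the lowest fatty acid synthesis sum and the highest macrophage sum. The fatty acid synthesis sums, of which SCD is the largest part, do not overlap between the groups.

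With the share of reads outside genes as a covariate, 5 of the 11 had an unadjusted p under 0.05 and the median was -0.60. Without pigs 19 and 21, 8 of the 11 did, with a median of -0.78, and without any 1 pig 9 did, with medians of -1.0 to -0.77.

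The steps that feed this synthesis showed smaller differences in the same direction. In NADPH supply, 5 of 7 genes had an unadjusted p under 0.05 at lower values in group II (median -0.38). TALDO1, the transaldolase of the pentose phosphate pathway, had a log2 fold change of -0.48. In glycolysis and glucose uptake the count was 6 of 13 (median -0.34), led by HK1 (hexokinase 1), at 151 to 284 CPM in group I and 116 to 171 CPM in group II. GAPDH had a log2 fold change of -0.62 and PGK1 of -0.50. For pyruvate dehydrogenase and the citric acid cycle it was 7 of 22 (median -0.35). PDHX, which binds the subunits of pyruvate dehydrogenase together, had -0.60 and PDHB -0.79. With the share of reads outside genes as a covariate, 2 of the 7, 4 of the 13 and 0 of the 22 were under 0.05 on the lower side, 1 of the 22 was on the higher side, and the median of the citric acid cycle genes was -0.03. In the other direction, 12 of the 22 were under 0.05 at lower values without pig 1 and 11 with RNA integrity as a covariate. For NADPH supply the count was 3 of 7 without any one of pigs 2, 5, 8, 17, 22 and 24. TPI1 and SDHA, enzymes that every cell uses, were listed at 0 in all 13 libraries, so a value of 0 in these files need not mean that a gene was silent.

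Cholesterol and ketone-body synthesis, the list that holds AACS, had 9 of 18 genes with an unadjusted p under 0.05, all at lower values in group II (median -0.47). HMGCS1, which condenses acetyl-CoA and acetoacetyl-CoA, measured 48.6 to 76.7 CPM in group I and 36.5 to 56.6 CPM in group II, with 5 of the 6 pigs under the control range. ACAT2, which forms acetoacetyl-CoA, had a log2 fold change of -0.55. With the share of reads outside genes as a covariate the count was 3 of 18 and the median -0.16.

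Among 10 genes of triglyceride synthesis and the lipid droplet, 4 had an unadjusted p under 0.05, all lower (median -0.34), and 4 did with the same covariate. They include FITM2, and 2 of the 10 were under 0.05 without pig 5. CIDEC, which fuses lipid droplets, measured 213 to 459 CPM in group I and 219 to 314 CPM in group II, and the groups overlapped in full. MOGAT2, a monoacylglycerol acyltransferase, spread from 2.74 to 54.8 CPM within group I alone. In lipolysis and fatty acid uptake, hormone-sensitive lipase (LIPE) had a log2 fold change of -0.50, ABHD5, the activator of adipose triglyceride lipase, of -0.60, and the fatty acid carrier FABP5 of 0.70, with 1 of the 7 genes under 0.05 on the higher side (0 without pig 24) and 3 on the lower (5 without pig 21). Of the 15 genes of fatty acid oxidation none had an unadjusted p under 0.05 in either direction with edgeR, 0 were called by DESeq2, and the median was -0.21. This count rested on single animals, since 5 of the 15 were under 0.05 on the lower side without pig 1, 5 without pig 17 and 5 with RNA integrity as a covariate, and 0 to 2 without any other pig. CPT2 and ETFA had log2 fold changes of -0.28 and -0.29.

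Nuclear genes of the respiratory chain also lay lower in group II. The count with an unadjusted p under 0.05 at lower values was 6 of 19 for complex I (median -0.30), 3 of 6 for complex III (-0.52), 3 of 6 for complex IV (-0.52) and 3 of 5 for ATP synthase (-0.44), with none on the higher side. The 4 lists held 38, 9, 12 and 15 genes, of which only 21, 6, 6 and 5 were matched by symbol, so many subunits were not measured here. Without pig 1 the count for complex III was 5 of 6, as it was with RNA integrity as a covariate. NDUFB8, a subunit of complex I, measured 9.50 to 16.4 CPM in group I and 5.04 to 9.47 CPM in group II, without overlap. NDUFA10 and NDUFS5, also of complex I, had log2 fold changes of -0.73 and -0.93. UQCRQ and UQCR10 of complex III had -0.68 each, COX15, an assembly factor of complex IV, had -0.71 and COX8A -0.59. In ATP synthase, ATP5MC1 had -0.95, ATP5F1A -0.48 and ATP5MC3 -0.44.

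Of the 13 genes that the mitochondrial genome itself encodes, 0 had an unadjusted p under 0.05 with edgeR, 0 were called by DESeq2, and the median was -0.09. The median was 0.17 with the share of reads outside genes as a covariate, 0.12 without pigs 19 and 21 and 0.03 without pig 21 alone. Without pigs 1, 5 or 17 the number under 0.05 on the lower side was 1, 1 and 2. ND6, ND5 and COX1, the 3 of smallest p, had log2 fold changes of -0.48, -0.33 and -0.29. In mitochondrial translation 3 of 22 genes (GFM1, MRPL18 and MRPL4) were under 0.05, with a median of -0.14, while 6 were without pig 1 and 5 without pig 22. In heme synthesis ALAS1, the rate-limiting enzyme, had -0.71 and was the only one of 6 under 0.05 (FECH had -0.17). With the share of reads outside genes as a covariate, the counts on the lower side were 2 of 19, 1 of 6, 1 of 6 and 1 of 5 for complexes I, III, IV and ATP synthase, with medians of -0.05, -0.25, -0.18 and -0.16.

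**Figure D5:**
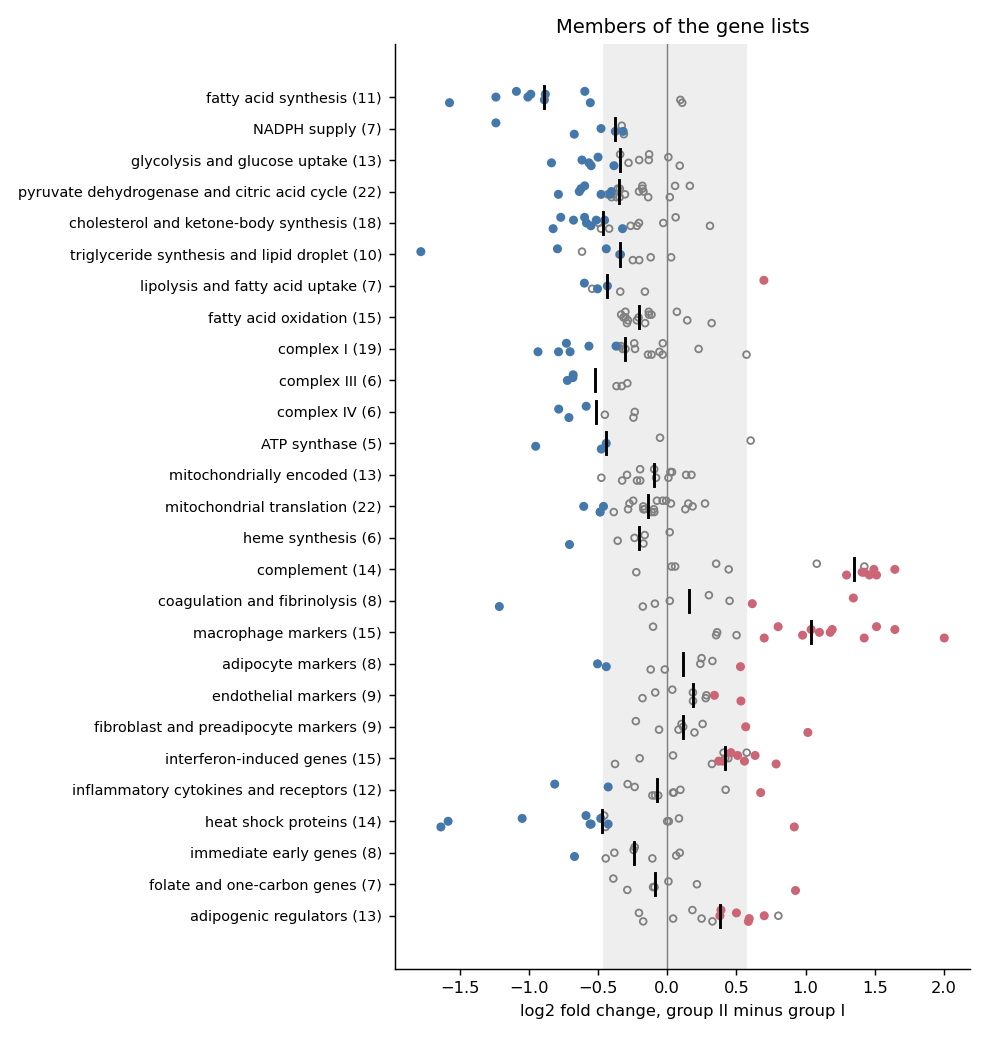
Log2 fold change of group II over group I (horizontal axis) for each tested member of the lists named on the vertical axis, with the number tested, filled where the unadjusted p was under 0.05 (blue lower, red higher in group II) and with a bar at the median. The grey band holds the middle 90% of all genes tested. Fatty acid synthesis lies furthest to the left, and complement and macrophage markers furthest to the right.

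Markers of macrophages lay higher with cDDGS. Of 20 markers 17 were matched and 15 tested, and 11 of these had an unadjusted p under 0.05, all at higher values in group II, with a median log2 fold change of 1.04. Of the 15, 14 had a positive log2 fold change, while FOLR2, which is also on this list, had -0.10. The summed level of the 17 matched markers was 123 to 386 CPM (median 213) in group I and 352 to 699 CPM (median 436) in group II. Pig 1, the highest of group I, lay above pigs 20, 22 and 24, and pig 19 stood highest of all. None passed the adjusted threshold with edgeR, and DESeq2 called 3.

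C1QA, a chain of the complement protein C1q that tissue macrophages make, measured 3.59 to 26.3 CPM (median 12.3) in group I and 32.1 to 68.7 CPM (median 34.9) in group II. VSIG4, a complement receptor of resident macrophages, measured 0.719 to 8.62 and 9.21 to 18.2 CPM, and the mannose receptor MRC1 18.2 to 91.1 and 95.6 to 194 CPM. These 3 did not overlap between the groups. The lectin CD209 had the largest log2 fold change of the list, 2.00 (SE 0.52), but pig 1 of group I, at 32.9 CPM, lay within the range of group II (18.2 to 68.2 CPM). C1QC had a log2 fold change of 1.42 and the protease cathepsin S (CTSS) of 0.80. Among the defining markers of low level, CD68 averaged 3.53 ± 1.79 CPM in group I (SD, n = 7) and 7.11 ± 4.23 CPM in group II (SD, n = 6), and MARCO reached at most 0.479 CPM in group I and 1.16 CPM in group II. With pigs 19 and 21 left out, or with the share of reads outside genes as a covariate, 6 of the 15 were under 0.05, with medians of 0.68 and 0.82.

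The complement list, which shares C1QA, C1QC and VSIG4 with the markers, had 7 of 14 genes with an unadjusted p under 0.05, all at higher values in group II (median 1.35). The receptor C5AR1 measured 2.02 to 11.3 CPM in group I and 8.51 to 23.7 CPM in group II. CFB and C5 were among the 7 through 1 animal, pig 17, at 89.4 and 48.5 CPM, while the other 5 pigs of group II lay at 5.21 to 14.8 and 4.05 to 11.8 CPM. Without that pig the median of the list was 0.40. In coagulation and fibrinolysis, tissue factor (F3) had a log2 fold change of -1.21, and F13A1, also a gene of macrophages, and the urokinase gene PLAU had 1.34 and 0.61, with 2 of 8 genes under 0.05 on the higher side (1 without any one of pigs 3, 5, 6, 7, 8, 17, 19, 20 and 22) and 1 on the lower.

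Markers of other cell types that backfat can hold were measured too. Of 3 mast cell markers tested, MS4A2, a chain of the IgE receptor, had a log2 fold change of 1.32 (8.15 to 53.5 CPM in group I, 38.5 to 80.9 in group II), KIT had 0.42 and GATA2 -0.20, and HDC did not exceed 0.188 CPM. Among 9 endothelial markers 2 had an unadjusted p under 0.05, ROBO4 (0.53) and ERG (0.34), among 9 of fibroblasts and preadipocytes FBN1 (0.57) and DPP4 (1.02, and 0.51 without pig 17, which had 15.5 CPM), and among 7 of pericytes and smooth muscle MCAM (0.52), all at higher values in group II. Of the 8 adipocyte markers tested, ACVR1C (0.53) lay higher and LIPE and CIDEC lower with a p under 0.05. No tested marker of T and NK cells (2 genes), B and plasma cells (1), neutrophils and monocytes (2), skeletal muscle (2), skin epithelium (1) or red blood cells (2) had a p under 0.05 with edgeR, and DESeq2 called none of them. With 1 pig left out, the counts of these marker lists moved by at most 1 gene in each direction, which for counts of 0 to 2 decides them (neutrophils and monocytes had 1 without pig 1 or 20, and red blood cells 1 without pig 8). Skeletal muscle markers varied widely within a group, from 1.11 to 1099 summed CPM in group I and from 13.4 to 978 in group II.

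Interferon-induced genes were at higher values in group II, with 7 of 15 under an unadjusted p of 0.05 and a median of 0.42. Without pig 1 the count was 11 and without pig 17 it was 5, as with the share of reads outside genes as a covariate. SP110 measured 11.7 to 17.7 CPM in group I and 14.5 to 28.9 CPM in group II, and TRIM25 and the RNA sensor IFIH1 had log2 fold changes of 0.79 and 0.56. Inflammatory cytokines and receptors lay on both sides (1 of 12 under 0.05 on the higher side, TLR2, and 2 on the lower, IL1RAP and IL1R1), with a median of -0.08, and each of these counts moved by at most 1 gene without 1 pig.

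Heat shock proteins had 8 of 14 genes under an unadjusted p of 0.05 at lower values in group II and 1, HSPB6 (0.92), at higher values, with a median of -0.47. The count on the lower side was 3 with the share of reads outside genes as a covariate, 5 without pigs 19 and 21, and 4 to 10 without 1 pig (4 without pig 2, 20 or 21, and 5 without pig 3, 5, 6, 8 or 17). HSPH1, a co-chaperone of HSP70, measured 33.6 to 251 CPM in group I and 34.2 to 79.9 CPM in group II. Pigs 1 and 7 of group I, at 53.7 and 33.6 CPM, were as low as the pigs given cDDGS, and the other 5 control pigs lay above the highest of these. HSPA13 had a log2 fold change of -0.59. Of the immediate early genes, JUNB (-0.67) was the only one of 8 under 0.05 (0 to 3 genes without 1 pig, with 0 without pigs 5 or 24, 2 without pig 20 and 3 without pig 8), with EGR1 at -0.38 and FOS at -0.44.

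Among regulators of adipogenesis 6 of 13 identifiers were under 0.05, all at higher values in group II (median 0.38). The list mixes factors that promote adipogenesis with factors that repress it, so a shared direction does not say whether adipogenesis rose or fell. Like the other lists, this list was put together with results of these libraries known, so its count is no independent evidence of its direction. ZEB1, a zinc finger factor that the study describes as a repressor of adipogenesis, measured 46.9 to 70.3 CPM in group I and 75.9 to 93.4 CPM in group II in 1 of its 2 identifiers. The other identifier had a log2 fold change of 0.38. The coactivator gene NCOA7 (53.3 to 88.6 against 90.4 to 121 CPM) and the acetyltransferase gene KAT8 (11.7 to 17.5 against 18.7 to 27.9 CPM) did not overlap between the groups either.

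The cDDGS diets were also set against each other, to compare the added fats. The series has no pigs given tallow or coconut oil without cDDGS. These comparisons therefore cannot show whether the effect of cDDGS depends on rapeseed oil. For beef tallow (group III against group II) 0 of 10410 genes were called with edgeR, the smallest adjusted p being 0.0582, 647 had an unadjusted p under 0.05, and DESeq2 called 29. For coconut oil (group IV against group II) 0 of 10062 were called, the smallest adjusted p being 0.251, with 502 under an unadjusted 0.05 and 2 called by DESeq2. None of the 24 genes above was called in either, and 15 and 11 of them had an unadjusted p under 0.05. The 24 were chosen by the values of group II, which enters both comparisons, so low p-values among them follow in part from that choice and are no evidence of an effect of the fat. USP53 had the smallest adjusted p of the 24 with tallow, 0.0582, and lay 1.04 higher on the log2 scale in group III than in group II.

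The levels of the 3 called genes in the other cDDGS groups are given as a description, since genes chosen because group II lay beyond group I tend by that choice to have intermediate means elsewhere. AACS averaged 131 ± 76.7 CPM with beef tallow and 148 ± 29.1 CPM with coconut oil (SD, n = 5 each), between the means of 118 CPM in group II and 209 CPM in group I. FITM2 averaged 51.0 ± 11.0 CPM in group III and 44.4 ± 11.4 in group IV, between the 62.5 ± 7.80 of group I and the 36.1 ± 6.03 of group II. FOLR1 averaged 56.8 ± 17.0 and 50.8 ± 19.1 CPM, under the 76.2 ± 10.6 of group II and above the highest control pig on average. Groups III and IV differ from group I in both cDDGS and the kind of fat, so a comparison with group I cannot tell these apart. Against the same control pigs, which these comparisons share, the log2 fold changes of AACS were -0.82 (SE 0.12) with rapeseed oil, -0.67 (SE 0.26) with tallow and -0.49 (SE 0.15) with coconut oil. Those of FITM2 were -0.79 (SE 0.13), -0.29 (SE 0.14) and -0.49 (SE 0.16). Those of FOLR1 were 0.92 (SE 0.15), 0.50 (SE 0.20) and 0.35 (SE 0.24). The direct difference from group II was 0.16 (SE 0.26) for AACS in tallow and 0.32 (SE 0.13) in coconut oil (adjusted p = 0.974 and 0.967 with edgeR). For FITM2 it was 0.51 (SE 0.16) and 0.29 (SE 0.18), with adjusted p = 0.653 and 0.989 with edgeR. For FOLR1 it was -0.42 (SE 0.19) and -0.59 (SE 0.23), with adjusted p = 0.789 and 0.967 with edgeR. None of these differences passed the threshold.

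Both sexes were present in both groups, and the difference between them was tested as an interaction of diet and sex. 0 of 10323 genes were called with edgeR (smallest adjusted p = 0.900), 367 had an unadjusted p under 0.05, and DESeq2 and limma-voom called 0. Of the 24 genes 1, USP53, had an unadjusted interaction p under 0.05. On the log2(CPM + 0.5) scale AACS was lower in group II by a mean difference of -0.64 in females and -1.03 in males, and FOLR1 was higher by 0.94 and 1.00. HSPH1 differed by -0.43 in females and -2.56 in males, an interaction that did not pass the adjusted test.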

How the data were processed

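Total RNA of backfat was sequenced in 1 stranded library per pig. The study reports that it could not obtain undegraded RNA, probably through freezer problems, and so chose a library kit that accepts RNA of low integrity. The authors trimmed and mapped the reads and deposited raw counts per Ensembl gene identifier, with bcl2fastq, FastQC, TopHat, RSEM and HTSeq named in the submitters' processing notes. Of 25322 identifiers, 11887 were given a symbol, 11804 of them from a reference table, and the 5 summary rows (reads outside genes and the like) were left out of library sizes. No per-sample column was left unmapped (0), and no 2 libraries held the same values.

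Counts of groups I and II were tested with edgeR 4.0.16 in R 4.3.3 (quasi-likelihood, TMM, filterByExpr, Benjamini-Hochberg over the 10323 genes kept), and a gene was called at an adjusted p under 0.05 and a fold change above 1.3. DESeq2 1.42.0, limma 3.58.1 (voom), other scaling and filters, covariates and the loss of each pig were alternatives. Leaving out pigs 19 and 21 together was chosen after seeing the data. The SE given with a log2 fold change is its absolute value divided by the square root of the edgeR F statistic, not a separate estimate. Single values were compared with two-sided exact permutation tests. The fits were tested on simulated data. The changes planted there were larger than those of the called genes, so the simulation does not cover differences of their size.

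Named are the called genes, the 12 of smallest p in each direction, the 3 of smallest p in each list, and in the marker lists also the 3 of highest level and those at 0. ACACA, ACSS2, FASN, MLXIPL, SLC25A1, C5, CFB, CD68, FOLR2, HDC, MARCO, PPARG, SDHA and TPI1 were named after their values were seen. The comparison and the lists were chosen with earlier results of these data known. Some genes that this rule names are not reported here.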

Additional observations from a re-analysis of the deposited data

Results flagged for a closer look

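In 78 groups of 6 or 7 values (genes and summed marker lists), 1 pig stood apart from the rest of its group in 10, by the gap to its nearest neighbour relative to the whole range. Chance gives about 1 in 20 such groups where values are normally distributed, which was not tested for these CPM. In each of the 10 the pig was the highest of its group, as a skewed spread also gives. The count of 10 is therefore no evidence of more such pigs than chance gives. C1QA and GIMAP4 stood apart in pig 19 of group II, at 68.7 and 66.1 CPM, where the other pigs of the group lay at 32.1 to 41.6 and 22.6 to 36.8 CPM. USP53 did so in pig 22 of group II, at 154 CPM (others 86.8 to 106). In group I, MYO1E was apart in pig 1, at 89.7 CPM (others 43.6 to 62.6), and MMD in pig 6, at 412 CPM (others 307 to 329). Among the summed markers of group II, pig 24 was apart in mast cells, at 217 CPM (others 149 to 165), and in skeletal muscle, at 978 CPM (others 13.4 to 179), and pig 17 in skin epithelium, at 19.2 CPM (others 2.03 to 6.65). In group I, pig 8 was apart in pericytes and smooth muscle, at 294 CPM (others 167 to 185), and in red blood cells, at 38.1 CPM (others 11.9 to 18.3).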

How the results depend on the processing

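The number of genes called between groups I and II was 3 with edgeR, 95 with DESeq2, 5 with sex or with sex and RNA integrity as covariates, and 0 with RNA integrity alone, with the share of reads outside genes, with all 23 pigs in 1 fit, or without pigs 19 and 21, which was chosen after seeing the data. Leaving out 1 pig at a time gave 0 to 17. With sex as a covariate C1QA and CD209 joined AACS, FITM2 and FOLR1. Groups failed to overlap in 31 to 62 genes higher and 25 to 84 lower in group II with 1 pig left out, the highest counts being without pig 21 (62) and pig 1 (84). Leaving out a pig can only keep or raise these counts, so their rise was fixed in advance. For group III against group II the count of 0 became 29 with DESeq2, 1 with RNA integrity, 4 with at least 10 counts in every pig, 4 with no filter and 0 to 5 without 1 pig (5 without pig 24). For group IV against group II it became 2 with DESeq2 and 1 with sex, RNA integrity or both. With the share of reads outside genes as a covariate, the log2 fold change turned from -0.29 to 0.0019 for COX1, from -0.12 to 0.068 for PLIN1 and from -0.10 to 0.011 for FOLR2. The cause of these changes was not tested. No paired analysis was possible because each pig has a number of its own in the labels and was in 1 group. The depth of 2437172 to 5261962 gene counts limits genes of a few CPM.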

Other observations

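Heat shock genes differed among the control pigs themselves. DNAJB1, a co-chaperone of HSP70, measured 4.42 to 109 CPM in group I, with pigs 7 and 1 at 4.42 and 8.77 CPM, and 8.69 to 52.8 CPM in group II. HSPH1 was lowest in the same 2 control pigs. DNAJB1 was chosen after its values were seen.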
